A study of Homo sapiens with 6 samples.

Results

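The 51 genes described here encode the machinery of DNA replication and the regulators of the passage from G1 to S phase. They form a list of gene names that was drawn up with earlier results of these data known, although no measured value enters the rule. All 51 were found among the 15059 genes of the deposited expression table. The RNA came from NOMO-1, an established human line of acute myeloid leukaemia with monocytic features, and each of the 3 groups had 2 libraries. Rescue cells (labelled sgMETTL16+OE-METTL16) overexpressed METTL16 and carried a guide RNA against the endogenous METTL16 gene. Knockout cells (sgMETTL16+EV) carried the same guide and an empty vector, and control cells (sgNS+EV) carried the control guide sgNS and an empty vector. All groups were kept in puromycin at 2 µg/ml for 1 to 2 weeks. No age, time course or other treatment is given. The labels describe selected infected cells and do not say whether a group came from 1 clone.

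METTL16 writes N6-methyladenosine, with U6 small nuclear RNA and the MAT2A messenger RNA as its best known substrates. DNA replication is set up in G1, when the origin recognition complex, CDC6 and CDT1 load the MCM2-7 helicase onto origins. In S phase the kinase CDC7-DBF4 and the factors CDC45, GINS and MCM10 turn the loaded helicase into an active one, and polymerases alpha, delta and epsilon copy the strands. Many of these genes are transcribed at the border of G1 and S by E2F factors. They are widely used as markers of proliferation in leukaemia cells. The 51 genes fall into 6 classes by role, namely origin recognition and licensing (14), helicase activation (8), polymerases and primase (9), clamp, clamp loader and Okazaki fragment enzymes (8), nucleotide supply (5), and E2F factors with S phase chromatin proteins (7).

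To show what the start regions of these genes hold, RefSeq windows from 250 bases before to 50 bases after each annotated start (GRCh38.p14) were searched for 4 forms of the E2F element. The first form was TTCCCGC and the next was TTGGCGC. The remaining forms were TTCGCGC and, as the last one, TTGCCGC. Both strands were read, and matches on opposite strands can overlap in a palindromic element. Windows were found for 46 of the 51 genes. MCM4, MCM5, GINS4, POLD3 and E2F8 had no entry. Of the 46, 35 (76.1%) held at least 1 match in any window, against 24.6% of the 9121 tested genes with a window. Of the genes that fell in knockout against control, as described further on, 11 of 12 with a window held a match, as did 22 of 31 that were not called and 2 of 3 that rose. CCAAT, the letters bound by NF-Y, stood in 10 of 12, 14 of 31 and 2 of 3 of the same groups, and in 43.0% of tested genes. A match describes letters only, and a stretch without one may hold a form of the element that was not searched. The 150 bases before the start are shown with E2F matches in capitals, as examples with and without a match and not as a contrast between calls. Only called genes with exactly 1 window were read in this way, which left out MCM7 and TK1. Of 11 fallen genes read, 7 held a match in these bases and 4 held none, and of the 2 risen genes read, CDC6 and FEN1, neither did. The share among genes that were not called was not counted for these bases. The examples from fallen genes are 5 with a match and, without one, GINS1 and RFC1. The matches of GINS1, RFC1 and CDC6 lay elsewhere in their windows. The stretch shown for CDC6 also holds ttggcgg, which differs from the searched TTGGCGC in its last letter.
ORC1 (chr1:52404424-52404573, minus strand): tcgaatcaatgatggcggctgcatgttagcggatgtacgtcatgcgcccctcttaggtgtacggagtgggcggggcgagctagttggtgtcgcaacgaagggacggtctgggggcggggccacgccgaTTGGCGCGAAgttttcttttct
MCM6 (chr2:135876444-135876593, minus strand): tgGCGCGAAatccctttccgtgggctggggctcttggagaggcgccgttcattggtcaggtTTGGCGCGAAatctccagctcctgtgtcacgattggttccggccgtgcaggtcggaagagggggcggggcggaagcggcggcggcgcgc
POLA1 (chrX:24693768-24693917, plus strand): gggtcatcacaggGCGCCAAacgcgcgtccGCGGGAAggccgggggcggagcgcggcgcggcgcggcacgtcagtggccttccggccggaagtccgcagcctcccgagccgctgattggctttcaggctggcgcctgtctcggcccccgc
PRIM1 (chr12:56752324-56752473, minus strand): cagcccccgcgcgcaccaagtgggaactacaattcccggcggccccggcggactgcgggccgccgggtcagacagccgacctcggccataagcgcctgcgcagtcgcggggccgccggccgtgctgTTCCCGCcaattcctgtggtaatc
CHAF1A (chr19:4402490-4402639, plus strand): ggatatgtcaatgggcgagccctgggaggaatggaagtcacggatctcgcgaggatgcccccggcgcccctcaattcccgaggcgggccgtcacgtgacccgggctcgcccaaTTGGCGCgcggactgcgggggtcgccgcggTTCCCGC
GINS1 (chr20:25407523-25407672, plus strand): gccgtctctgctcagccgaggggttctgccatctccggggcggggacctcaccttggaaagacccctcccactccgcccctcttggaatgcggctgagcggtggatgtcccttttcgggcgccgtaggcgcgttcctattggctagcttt
RFC1 (chr4:39366363-39366512, minus strand): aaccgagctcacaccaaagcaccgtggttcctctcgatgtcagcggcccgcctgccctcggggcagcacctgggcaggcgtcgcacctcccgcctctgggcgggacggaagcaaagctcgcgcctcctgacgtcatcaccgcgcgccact
CDC6 (chr17:40287729-40287878, plus strand): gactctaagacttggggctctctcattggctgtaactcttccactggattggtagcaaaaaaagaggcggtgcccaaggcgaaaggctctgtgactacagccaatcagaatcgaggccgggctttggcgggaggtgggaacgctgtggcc
FEN1 (chr11:61792761-61792910, plus strand): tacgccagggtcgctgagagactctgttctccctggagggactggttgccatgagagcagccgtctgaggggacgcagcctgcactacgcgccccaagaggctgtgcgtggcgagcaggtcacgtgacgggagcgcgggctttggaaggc

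Each gene has 1 abundance from RSEM in each library, here named its signal. RSEM abundances are scaled by transcript length, so levels of different genes can be set side by side. Summed over all genes it came to 680458 and 681928 in rescue, 649342 and 597160 in knockout, and 668903 and 619472 in control. No read totals are stated. The spacing of low values of short RNAs placed 1 unit at 46.0 to 50.1 reads where the transcript is 2000 nt long, by estimate. METTL16 (chromosome 17, 2405562 to 2511891, minus strand, GRCh38), the check of the labels, had a signal of 12.3 and 12.1 in rescue, 6.05 and 5.83 in knockout, and 9.89 and 9.63 in control. Control replicate 2 lay low across genes, with a median log2 deviation of -0.10 over all tested genes, where the other libraries lay between 0.0024 and 0.040. Of 10 myeloid markers 8 were in the table, with a summed signal of 323 to 332 in rescue, 431 to 441 in knockout and 263 to 286 in control. For 7 of the 8, both knockout libraries lay above the other 4. The exception was ITGAM, at 4.98 and 5.39 in rescue, 5.08 and 4.54 in knockout, and 5.65 and 4.79 in control. The gap to rescue was narrow for CD33, at 34.0 and 37.3 in knockout and 33.8 and 31.6 in rescue. It was also narrow for HOXA9, at 45.9 and 45.8 in knockout and 43.1 and 44.9 in rescue. Of all tested genes 26.2% rose in knockout against control, as described further on. The share of all genes with knockout above the other 4 libraries was not counted. The part of these markers in the results was not tested. CD14 and MPO were not analysed here. The 2 of 5 lymphoid markers in the table summed to at most 2.85 and the 2 of 5 epithelial ones to at most 1.34 in any library, and no erythroid or fibroblast marker was in the table.

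All 51 genes were well expressed and passed the filter, which asked for 1 unit of signal or more in 2 libraries or more. The mean signal over the 6 libraries ran from 8.03 for GINS3, a subunit of the GINS complex, to 222 for PCNA, the sliding clamp, with a median of 27.8. Even GINS3 rested on an estimated 396 to 469 reads per library. After PCNA, the highest means were those of the helicase subunits MCM6, MCM3 and MCM7, the ribonucleotide reductase subunit RRM2 and the thymidylate synthase TYMS. Summed over the 51 genes the signal was 2436 and 2484 in rescue, 2203 and 2127 in knockout, and 2348 and 2179 in control. The rescue sums lay above the others, while knockout and control sums overlapped. Within these bulk libraries fewer cells in S phase and less RNA per cell cannot be told apart.

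**Figure D1:**
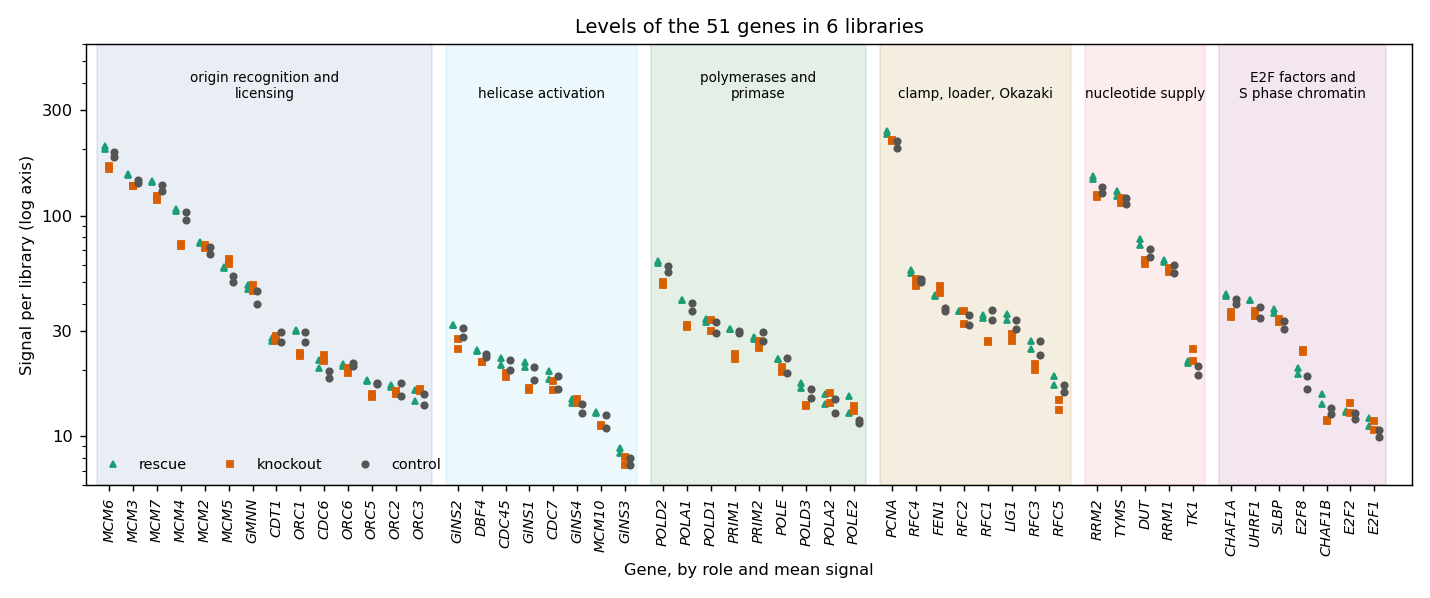
Signal per library (log axis) of the 51 genes, grouped by role and ordered by mean signal, with rescue (triangles), knockout (squares) and control (circles). Levels span from 8.03 for GINS3 to 222 for PCNA as means over 6 libraries, and differences between groups are small beside differences between genes.

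In knockout against control cells, 13 of the 51 genes fell, 5 rose and 33 did not pass the test, which was limma on log2(signal + 1) with an adjusted p of 0.05 over 12734 genes. Of all tested genes, 39.7% were called in either direction. The fallen genes were MCM4, MCM6, MCM7, ORC1, GINS1, POLA1, PRIM1, POLD2, RFC1, RFC3, RFC5, LIG1 and CHAF1A. The risen genes were MCM5, CDC6, FEN1, TK1 and E2F8. The changes were modest, with log2 values from -0.44 for MCM4 to 0.46 for E2F8 and a median of -0.052, against 0.067 over all tested genes. Fallen genes made up 25.5% of the 51 and 13.5% of all tested genes, and risen genes 9.80% and 26.2%. The median standard error was 0.071 for the 51 and 0.088 for all genes, which lets smaller changes pass among them.

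The split of these calls depended on scaling and on single libraries. After each library was centred on its median, 26 genes fell and 4 rose, and after quantile normalization 25 fell and 4 rose. Over all genes, centring turned the split of 3333 risen and 1723 fallen into 3080 risen and 3208 fallen. The number fallen was 8 without control replicate 1, 19 without control replicate 2, 8 without knockout replicate 1, 5 without knockout replicate 2 and 8 without either rescue library. The number risen was 3 without control replicate 2 and 2 without knockout replicate 1. MCM4, RFC1, PRIM1 and POLA1 fell, and E2F8 and FEN1 rose, under each of the 14 alternatives. The plot of counts under each processing gives both comparisons.

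**Figure D2:**
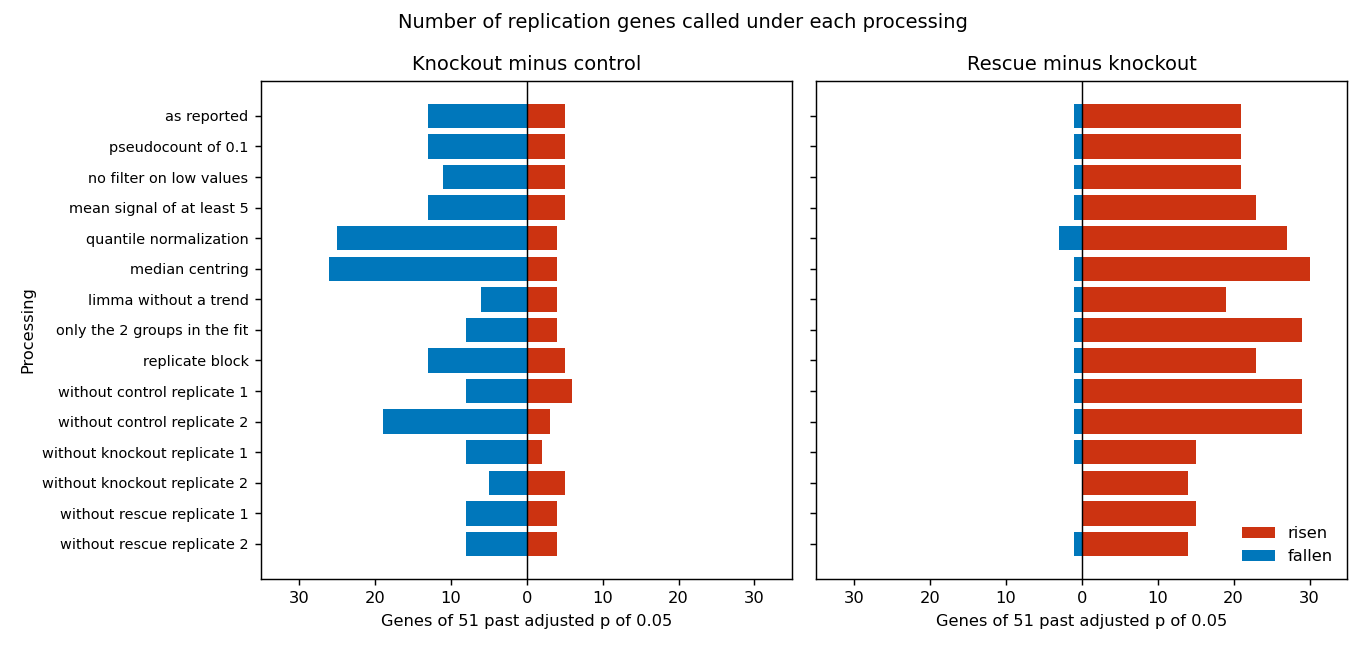
Number of the 51 genes called as fallen (bars to the left) and risen (bars to the right) at an adjusted p of 0.05 under each processing, for knockout minus control and rescue minus knockout. As reported, 13 fell and 5 rose in knockout, and 21 rose and 1 fell in rescue.

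In rescue against knockout cells, 21 of the 51 genes rose, 1 fell and 29 did not pass, where 31.4% of all tested genes were called in either direction. The median log2 change was 0.15, against -0.012 over all tested genes. Risen genes made up 41.2% of the 51 and 15.6% of all tested genes, and fallen genes 1.96% and 15.9%. The gene that fell was E2F8. This comparison uses the same 2 knockout libraries as the one above, so the changes in both are given side by side and are not independent. Without knockout replicate 1 the median was 0.18 for the 51 and 0.0042 over all genes, and without knockout replicate 2 it was 0.15 and -0.022. Without rescue replicate 1 it was 0.18 and 0.0049, and without rescue replicate 2 it was 0.14 and -0.027. The call of E2F8 was lost without knockout replicate 2 or rescue replicate 1.

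In rescue against control cells none of the 51 genes passed limma's test. At an unadjusted p under 0.05, 11 were higher and 0 lower in rescue, and limma without a trend also called 0. Of all 12734 tested genes, 1327 were higher and 136 lower at that unadjusted p. Over all genes 0.283% were called, 0.228% risen and 0.055% fallen. The log2 differences of the 51 ran from -0.030 to 0.23, with 47 above 0 and a median of 0.10, against 0.061 over all genes. Over all genes 9639 were above 0. With median centring the median of the 51 was 0.041, and with quantile normalization 0.036, against -0.0027 and -0.0012 over all genes. Without control replicate 2 it was 0.055, against 0.00056 over all genes. Without control replicate 1 it was 0.17, against 0.12. The difference nearest to the threshold was that of RRM2, at 0.19 (95% interval 0.078 to 0.31, adjusted p = 0.177). A p above the threshold does not show that rescue and control were alike.

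**Figure D3:**
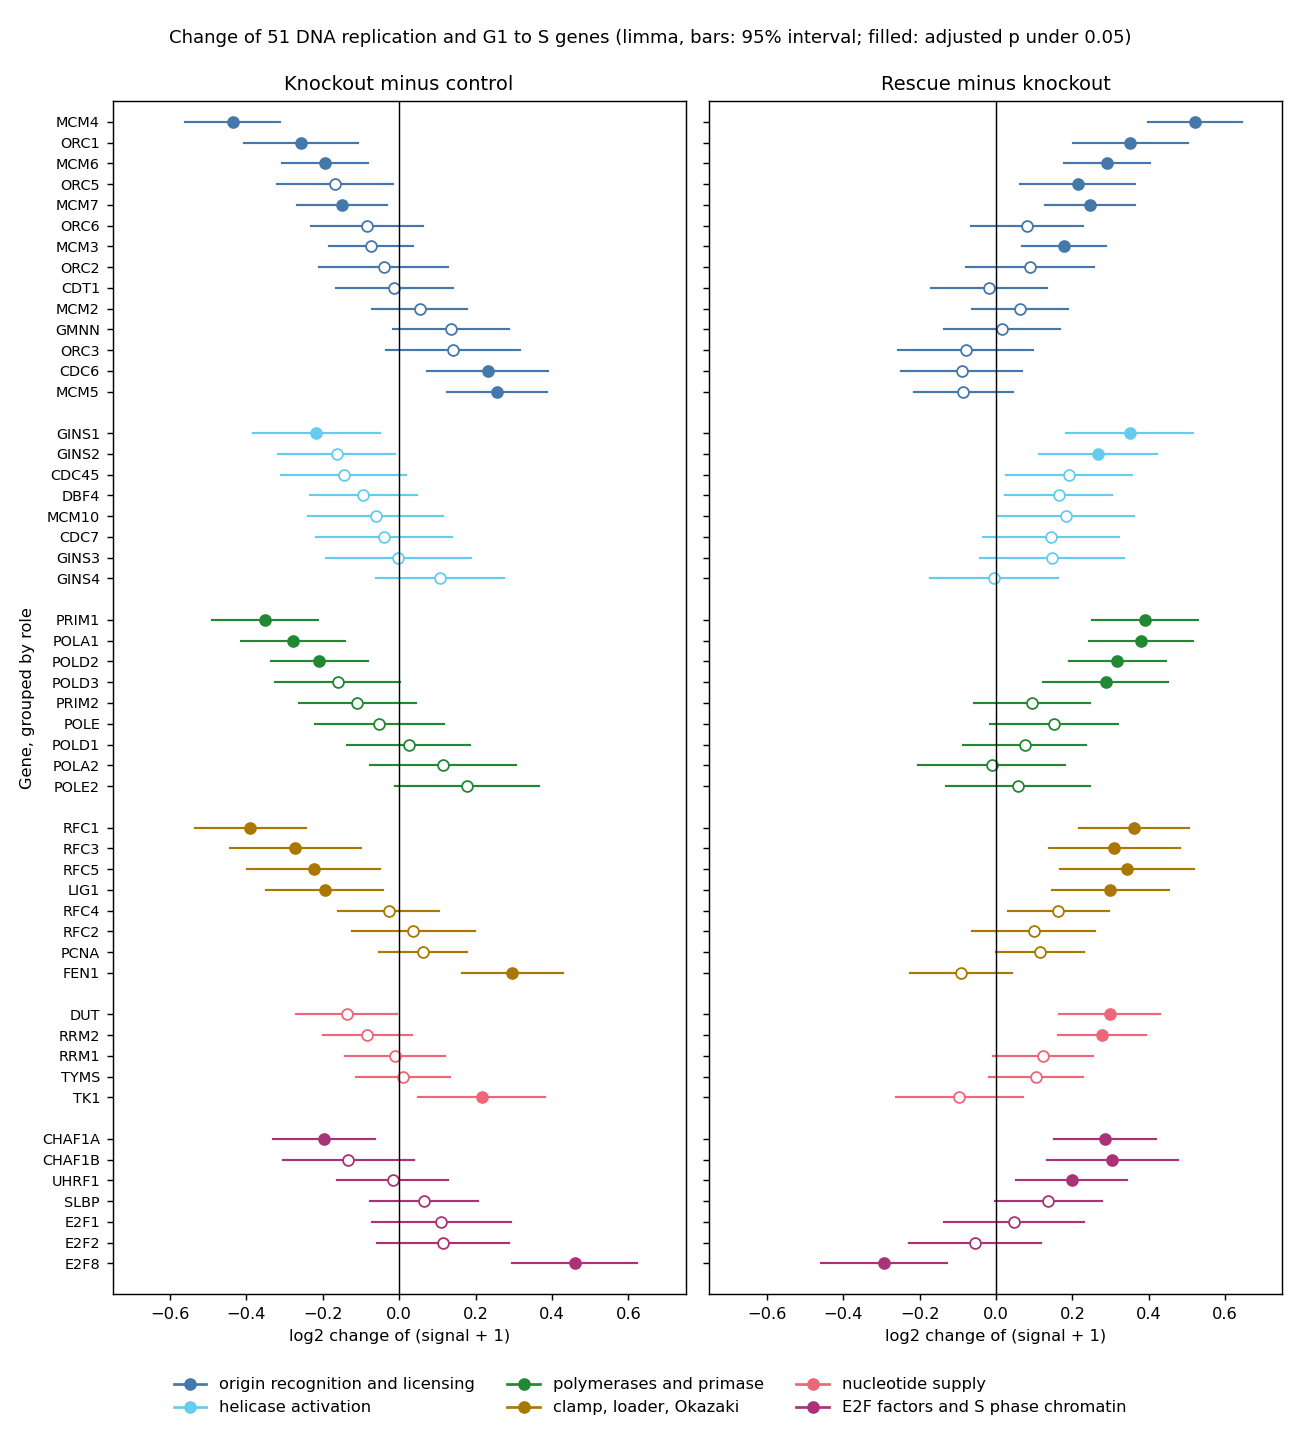
Change in log2(signal + 1) of the 51 genes, in knockout minus control (left) and rescue minus knockout (right), with 95% intervals from limma and filled points where the adjusted p was under 0.05. MCM4 and E2F8 lie at the ends in both panels, at -0.44 and 0.46 in knockout and at 0.52 and -0.29 in rescue.

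The counts in each class below stand against 13.5% fallen and 26.2% risen of all tested genes in knockout. In rescue against knockout, 15.6% of all tested genes rose and 15.9% fell. Counts at limma's unadjusted p under 0.05 stand against other numbers. Of all 12734 tested genes, 4047 were higher and 2122 lower in knockout by that criterion. It gave 2616 higher and 2750 lower in rescue against knockout. Among the 14 genes of origin recognition and licensing, 4 fell and 2 rose in knockout (median log2 change -0.057). In rescue against knockout 6 rose, none fell at an adjusted or unadjusted p of 0.05, and the median was 0.085. ORC1, the largest subunit of the origin recognition complex and its regulated ATPase (ENSG00000085840, chromosome 1, 52372829 to 52404459, minus strand), had a signal of 30.3 and 30.1 in rescue, 23.9 and 23.1 in knockout, and 29.9 and 26.7 in control. Both knockout libraries lay below the other 4. The log2 change was -0.26 (SE 0.070, adjusted p = 0.010) in knockout against control and 0.35 (adjusted p = 0.00193) in rescue against knockout. The knockout call was lost without knockout replicate 2.

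The other subunits among the 51 did not pass in knockout. ORC5, at 17.9 and 18.1 in rescue, 15.1 and 15.6 in knockout, and 17.5 and 17.2 in control, had a log2 change of -0.17 (adjusted p = 0.0727) in knockout. In rescue it rose by 0.21 (adjusted p = 0.0324), but not when any knockout or rescue library was left out, which is 4 of 14 alternatives. ORC2, ORC3 and ORC6 were at -0.041, 0.14 and -0.084. ORC1 took 24.0% and 23.5% of the summed signal of ORC1 to ORC6 in knockout, against 27.1% and 26.3% in control. ORC3 took 16.5% and 16.4% in knockout, against 14.1% and 13.6% in control. Such shares do not depend on the scaling of a library, and they show unequal change between subunits, not which of them stayed level.

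CDC6, the ATPase that brings the helicase to the origin complex (chromosome 17, 40287633 to 40304657, plus strand), moved the other way. Its signal was 20.3 and 22.1 in rescue, 23.3 and 21.9 in knockout, and 19.8 and 18.4 in control. Knockout libraries lay above the control libraries and overlapped the rescue libraries. It rose by 0.23 in knockout (SE 0.074, adjusted p = 0.0229). Leaving out control replicate 2 or knockout replicate 1 ended that call. CDT1, the partner of CDC6 in loading, was at -0.012 (95% interval -0.16 to 0.14), and GMNN, which encodes the CDT1 inhibitor geminin, at 0.14 (-0.015 to 0.29, adjusted p = 0.140). The ratio of CDT1 to GMNN within a library was 0.575 and 0.583 in rescue, 0.590 and 0.596 in knockout, and 0.652 and 0.666 in control. The rescue and knockout libraries both lay below control in this ratio, which was chosen with the values in view and has no test.

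The 6 subunits of the MCM2-7 helicase, which are built into the complex in equal numbers, moved apart. MCM4 (ENSG00000104738, chromosome 8, 47960185 to 47978160, plus strand) had a signal of 105 and 107 in rescue, 74.4 and 72.8 in knockout, and 104 and 95.8 in control. Knockout libraries held 0.736 of the control level, with no overlap, and a log2 change of -0.44 (SE 0.058, adjusted p = 5.85e-05). It rose by 0.52 in rescue against knockout (adjusted p = 2.39e-05). Both were the largest changes of this direction among the 51 genes.

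MCM6 had a signal of 201 and 206 in rescue, 169 and 164 in knockout, and 195 and 185 in control, and MCM7 of 142 and 144, 122 and 118, and 138 and 129 in the same order. Knockout libraries of both genes lay below all others. MCM6 fell by 0.19 (adjusted p = 0.00974) and MCM7 by 0.15 (adjusted p = 0.0417) in knockout, and they rose by 0.29 and 0.25 in rescue. In knockout, the call of MCM6 was lost without a trend in limma and without knockout replicate 2, and that of MCM7 in 7 of the 14 alternatives. MCM3 was at -0.074 in knockout (adjusted p = 0.270), and the change in rescue against knockout was a rise of 0.18 (adjusted p = 0.0171). That call was lost in 5 of 14 alternatives, namely limma without a trend and the omission of any knockout or rescue library. MCM2 was at 0.053 (95% interval -0.072 to 0.18) and 0.062.

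MCM5 (chromosome 22, 35400063 to 35425430, plus strand) rose in knockout. Its signal was 58.8 and 58.0 in rescue, 63.9 and 60.1 in knockout, and 53.5 and 50.04 in control. Knockout libraries stood highest and control libraries lowest, with no overlap. The log2 change was 0.26 (SE 0.061, adjusted p = 0.00431) in knockout against control and -0.085 (adjusted p = 0.307) in rescue against knockout. Without knockout replicate 1 the adjusted p was 0.0649. The ratio of MCM5 to MCM4 was 0.559 and 0.542 in rescue, 0.858 and 0.826 in knockout, and 0.513 and 0.522 in control. As this pair joins a risen gene to the most fallen one, its shift follows from those calls and has no test.

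As a share of the summed MCM2 to MCM7 signal, MCM4 took 14.3% and 14.4% in rescue, 11.7% in both knockout libraries, and 14.7% and 14.3% in control. MCM5 took 7.998% and 7.78% in rescue, 10.0% and 9.67% in knockout, and 7.54% and 7.496% in control. MCM2 took 11.5% in both knockout libraries, against 10.2% and 10.03% in control. These shares are free of library scaling, and each of the 6 separated the knockout from the control libraries. The gaps were narrow for MCM3 (21.3% and 21.8% in knockout, 20.5% and 21.0% in control). They were also narrow for MCM7 (19.2% and 19.0% in knockout, 19.5% and 19.3% in control). The shares of a library add up to the whole, so these are not 6 independent results, and 2 libraries per group separate easily.

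**Figure D4:**
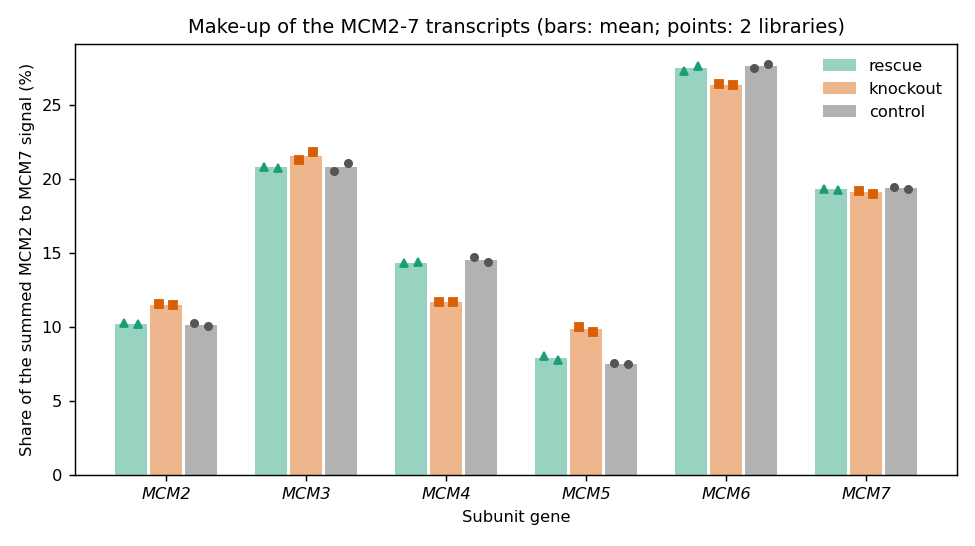
Share of the summed MCM2 to MCM7 signal taken by each subunit gene, as the mean (bars) and the 2 libraries (points) of rescue, knockout and control. MCM4 averaged 11.7% in knockout and 14.5% in control, and MCM5 9.84% in knockout and 7.52% in control, with rescue means of 14.3% and 7.89%.

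Of the 8 genes of helicase activation, 1 fell and none rose in knockout (median -0.077), and in rescue against knockout 2 rose and none fell (median 0.17). At an unadjusted p under 0.05, 2 were lower and 0 higher in knockout, and 5 higher and 0 lower in rescue against knockout. GINS1 (chromosome 20, 25407727 to 25452628, plus strand), a subunit of the complex that bridges helicase and polymerase epsilon, had a signal of 20.6 and 21.7 in rescue, 16.1 and 16.6 in knockout, and 20.5 and 17.9 in control. Both knockout libraries lay below the other 4. It fell by 0.22 in knockout (SE 0.078, adjusted p = 0.0388), a call lost in 7 of 14 alternatives, and the change in rescue against knockout was a rise of 0.35 (adjusted p = 0.00391).

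GINS2 was at -0.16 in knockout (adjusted p = 0.0840), and the change in rescue against knockout was a rise of 0.27 (adjusted p = 0.0118), lost without knockout replicate 2 or either rescue library. GINS3 was at -0.0018 and GINS4 at 0.11 in knockout, neither past the test. GINS4 took 18.9% and 19.1% of the summed GINS signal in rescue, 22.4% and 22.3% in knockout, and 19.1% and 19.2% in control. CDC45, which joins the helicase to make it active, was at -0.15 (adjusted p = 0.147) and 0.19 (adjusted p = 0.0714) in the 2 comparisons, and the origin firing factor MCM10 at -0.061 and 0.18. The kinase CDC7 and its activator DBF4 were at -0.040 and -0.094 in knockout, with intervals from -0.22 to 0.14 and from -0.23 to 0.046.

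Among the 9 polymerase and primase genes 3 fell in knockout and none rose at an adjusted or unadjusted p of 0.05 (median -0.11). In rescue against knockout 4 rose, none fell by either criterion, and the median was 0.15. The knockout median was -0.043 without control replicate 1 and -0.18 without control replicate 2. The calls fell on polymerase alpha-primase, which lays down the first primers, and on polymerase delta, which extends the lagging strand.

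PRIM1, the catalytic primase subunit (ENSG00000198056, chromosome 12, 56731596 to 56752373, minus strand), had a signal of 30.5 and 30.6 in rescue, 23.7 and 22.5 in knockout, and 29.3 and 30.2 in control. Knockout libraries held 0.777 of the control level, far from the spread within any group, with a log2 change of -0.35 (SE 0.065, adjusted p = 0.000787), and the change in rescue against knockout was a rise of 0.39 (adjusted p = 0.000567). An exon of NACA on the same strand overlaps PRIM1, and NACA was at -0.061 in knockout. POLA1, the catalytic subunit of polymerase alpha (chromosome X, 24693919 to 24996986, plus strand), had a signal of 41.5 and 41.3 in rescue, 31.9 and 31.3 in knockout, and 40.1 and 36.9 in control. Again both knockout libraries lay below the other 4. POLA1 fell by 0.28 in knockout (SE 0.064, adjusted p = 0.00346), and the change in rescue against knockout was a rise of 0.38 (adjusted p = 0.000588).

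The partners of these catalytic subunits did not pass the test in knockout. PRIM2, the large primase subunit, was at -0.11 in knockout (95% interval -0.26 to 0.043) and POLA2, the accessory subunit of polymerase alpha, at 0.12 (-0.077 to 0.31). Within a library the ratio of POLA1 to POLA2 was 2.66 and 2.95 in rescue, 2.02 and 2.21 in knockout, and 2.73 and 2.90 in control. That of PRIM1 to PRIM2 was 1.08 and 1.11 in rescue, 0.873 and 0.895 in knockout, and 0.988 and 1.12 in control. In both ratios the knockout libraries lay below the others. Each ratio holds a gene called on the same values, and neither has a test.

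POLD2, an accessory subunit of polymerase delta (chromosome 7, 44114681 to 44124358, minus strand), had a signal of 60.9 and 62.6 in rescue, 50.1 and 48.6 in knockout, and 59.2 and 55.4 in control. Both knockout libraries lay below the other 4. POLD2 fell by 0.21 (SE 0.059, adjusted p = 0.0126) in knockout and rose by 0.32 (adjusted p = 0.00127) in rescue. The first of these calls was lost without knockout replicate 2 and for limma without a trend. POLD3, another accessory subunit, was at -0.16 in knockout (adjusted p = 0.108), and the change in rescue against knockout was a rise of 0.29 (adjusted p = 0.0108), lost without either knockout library or rescue replicate 1. The catalytic POLD1 was at 0.025 in knockout, with an interval from -0.14 to 0.19. POLE, the catalytic subunit of the leading-strand polymerase epsilon, was at -0.052 (-0.22 to 0.12), and its partner POLE2 at 0.18 (-0.012 to 0.37, adjusted p = 0.125). The ratio of POLE2 to POLE was 0.567 and 0.679 in rescue, 0.634 and 0.696 in knockout, and 0.528 and 0.595 in control. Rescue and knockout libraries overlapped in this ratio.

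Of the 8 genes of the clamp, its loader and the Okazaki fragment enzymes, 4 fell and 1 rose in knockout (median -0.11). In rescue against knockout 4 rose and none fell (median 0.23), with 6 higher and 0 lower at an unadjusted p under 0.05. RFC1, the large subunit of the clamp loader (ENSG00000035928, chromosome 4, 39287456 to 39366375, minus strand), had a signal of 34.3 and 35.4 in rescue, 26.8 and 27.0 in knockout, and 37.4 and 33.8 in control. Knockout libraries held 0.756 of the control level, with no overlap. The log2 change was -0.39 (SE 0.067, adjusted p = 0.000483), and the change in rescue against knockout was a rise of 0.36 (adjusted p = 0.00123).

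RFC3 fell by 0.27 (adjusted p = 0.0150) and RFC5 by 0.22 (adjusted p = 0.0417) in knockout. Their signals were 24.8 and 26.9 in rescue, 21.3 and 20.04 in knockout, and 27.1 and 23.4 in control for RFC3, and 17.1 and 18.8, 13.2 and 14.6, and 17.1 and 15.8 in the same order for RFC5. The call of RFC3 was lost without control replicate 1 or knockout replicate 2, and that of RFC5 in 7 of 14 alternatives. The other small subunits, RFC2 at 0.037 and RFC4 at -0.027, did not pass. PCNA, the clamp that the complex loads, had a signal of 235 and 241 in rescue, 221 and 217 in knockout, and 218 and 202 in control. Its log2 change of 0.063 in knockout (95% interval -0.052 to 0.18, adjusted p = 0.373) came with overlapping groups.

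The enzymes that finish Okazaki fragments went opposite ways. LIG1, the ligase that seals them, had a signal of 35.9 and 33.6 in rescue, 28.998 and 27.0 in knockout, and 33.8 and 30.6 in control. It fell by 0.19 in knockout (adjusted p = 0.0424), a call lost in 8 of 14 alternatives, and the change in rescue against knockout was a rise of 0.30 (adjusted p = 0.00587), lost without knockout replicate 2 or rescue replicate 1. FEN1, the flap endonuclease that trims them (ENSG00000168496, chromosome 11, 61792637 to 61797244, plus strand), had a signal of 43.2 and 43.6 in rescue, 48.0 and 44.7 in knockout, and 38.2 and 36.8 in control. Knockout libraries lay above rescue and rescue above control, with no overlap. FEN1 rose by 0.30 in knockout (SE 0.062, adjusted p = 0.00191) and was at -0.092 in rescue against knockout (adjusted p = 0.282).

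Exons of FEN1 overlap those of FADS2 on the same strand and of TMEM258 on the opposite strand. TMEM258 rose by 0.51 in knockout (adjusted p = 1.25e-05) and FADS2 was at -0.042. The libraries were stranded per the labels, but whether the counting used strand is not given in the sources used here, so reads in the shared stretch cannot be told apart. The ratio of FEN1 to LIG1 was 1.205 and 1.30 in rescue, 1.655 and 1.654 in knockout, and 1.13 and 1.203 in control. This pair too joins a risen and a fallen gene, so its shift follows from those calls and has no test.

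Nucleotide supply had a median of -0.010 in knockout, which was -0.079 with median centring, -0.071 without control replicate 2 and 0.051 without control replicate 1. Of its 5 genes 1 rose and none fell, with 1 below 0 at an unadjusted p under 0.05. In rescue against knockout 2 rose and none fell by either criterion (median 0.12). TK1, which salvages thymidine (chromosome 17, 78174075 to 78187233, minus strand), had a signal of 21.9 and 21.6 in rescue, 24.9 and 21.9 in knockout, and 20.9 and 19.1 in control. It rose by 0.22 in knockout (SE 0.078, adjusted p = 0.0392), but knockout and rescue libraries overlapped, and the call was lost in 8 of 14 alternatives.

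RRM1 and RRM2, the subunits of ribonucleotide reductase, were at -0.010 (95% interval -0.14 to 0.12) and -0.083 (-0.20 to 0.033) in knockout. RRM2 had a signal of 147 and 151 in rescue, 124 and 122 in knockout, and 135 and 126 in control. It rose by 0.28 in rescue against knockout (adjusted p = 0.00172), with the rescue libraries above all others. DUT, which removes dUTP, had a signal of 73.8 and 78.2 in rescue, 63.1 and 60.2 in knockout, and 70.7 and 65.2 in control, at -0.14 in knockout (adjusted p = 0.0906) and risen by 0.30 in rescue (adjusted p = 0.00245). TYMS, which makes thymidylate, was at 0.010 in knockout, with an interval from -0.11 to 0.13.

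Set side by side, licensing, polymerases and nucleotide supply had medians of -0.057, -0.11 and -0.010 in knockout and 0.085, 0.15 and 0.12 in rescue against knockout. The spread within each class was wider than the distance between these medians, from -0.44 to 0.26 in licensing, from -0.35 to 0.18 in polymerases and from -0.14 to 0.22 in nucleotide supply in knockout. No test of the difference between classes was made.

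The E2F factors and S phase chromatin proteins had 1 of 7 genes fallen and 1 risen in knockout (median 0.065), and 3 risen and 1 fallen in rescue (median 0.14). E2F8, an atypical E2F that represses E2F target genes (ENSG00000129173, chromosome 11, 19224063 to 19241620, minus strand), had a signal of 19.2 and 20.4 in rescue, 24.2 and 24.7 in knockout, and 18.7 and 16.4 in control. Knockout libraries held 1.39 times the control level and lay above all others. The log2 change was 0.46 (SE 0.077, adjusted p = 0.000368) in knockout and -0.29 (adjusted p = 0.0102) in rescue against knockout. It was the largest rise among the 51 genes in knockout.

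The activating factors E2F1 and E2F2 were at 0.11 and 0.11 in knockout, with intervals from -0.072 to 0.29 and from -0.058 to 0.29. CHAF1A, the large subunit of the histone chaperone CAF-1, had a signal of 44.0 and 43.3 in rescue, 36.5 and 34.8 in knockout, and 42.1 and 39.8 in control. It fell by 0.20 in knockout (SE 0.062, adjusted p = 0.0214), a call lost in 6 of 14 alternatives, and the change in rescue against knockout was a rise of 0.29 (adjusted p = 0.00334). UBXN6, whose exons overlap CHAF1A on the opposite strand, rose by 0.24 in knockout. CHAF1B, the CAF-1 partner of CHAF1A, was at -0.13 in knockout (adjusted p = 0.205), and the change in rescue against knockout was a rise of 0.30 (adjusted p = 0.0104), lost without knockout replicate 1 or rescue replicate 2.

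UHRF1, which brings DNMT1 to newly copied DNA, was at -0.017 in knockout and in rescue it rose by 0.20 (adjusted p = 0.0375). This call was lost in 5 of 14 alternatives, namely limma without a trend and without each knockout or rescue library. SLBP, which binds the stem-loop of histone messenger RNAs, was at 0.065 in knockout (95% interval -0.075 to 0.21) and 0.14 in rescue (adjusted p = 0.128). The panels of single genes show every library of the 18 genes called in knockout.

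**Figure D5:**
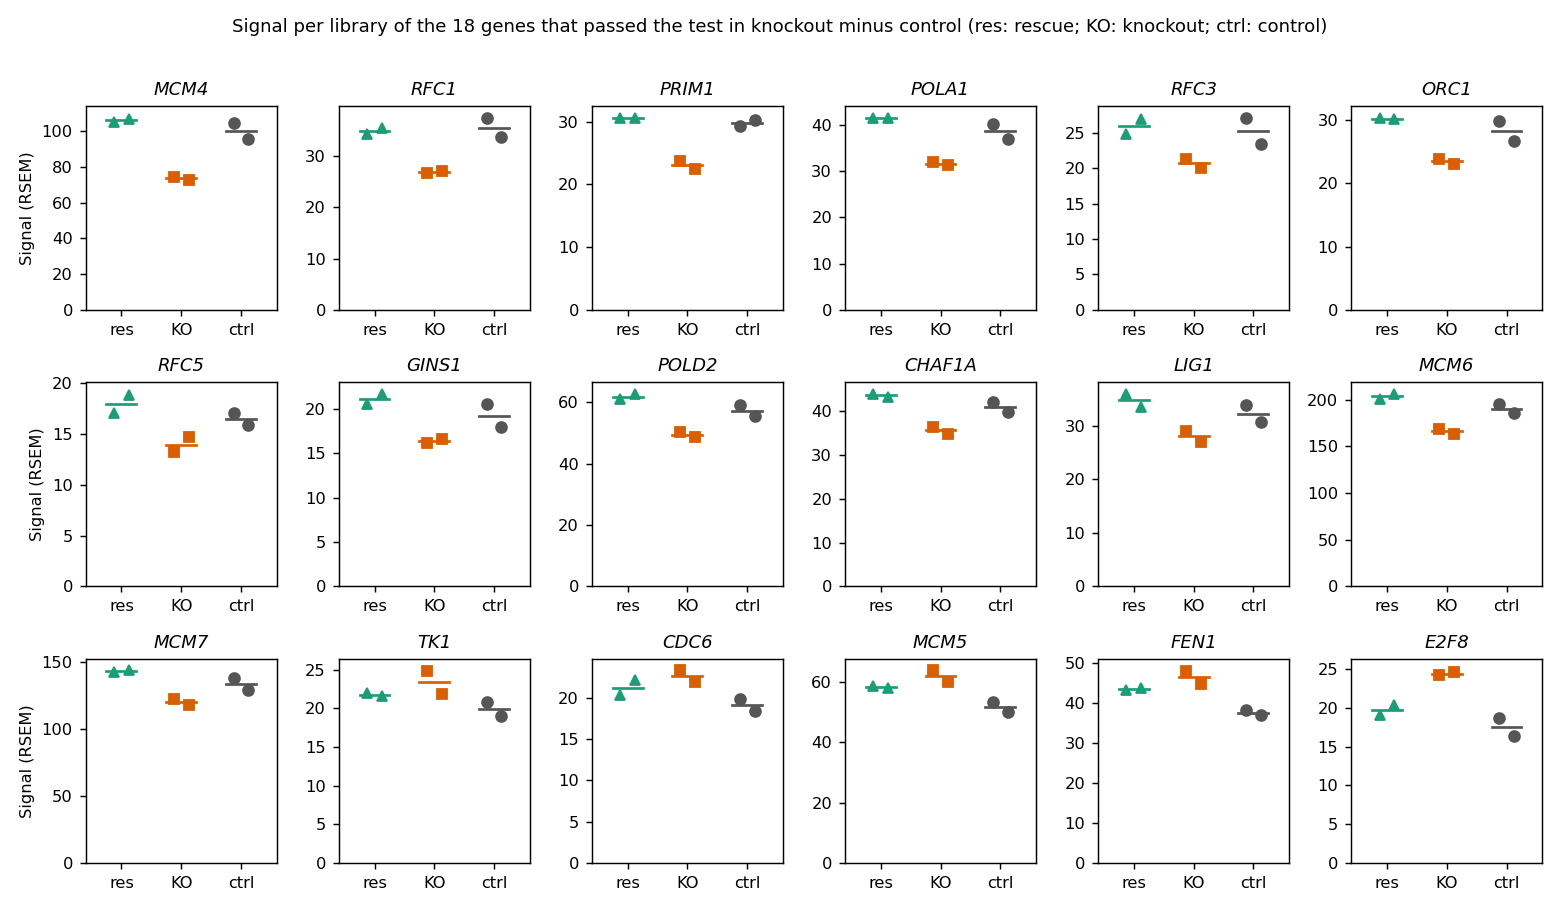
Signal (linear axis from 0) in each library of the 18 genes that passed the test in knockout minus control, for rescue (res, triangles), knockout (KO, squares) and control (ctrl, circles), with lines at group means. For the first 13 genes, from MCM4 to MCM7, both knockout libraries lie below the other 4, and for the last 5, from TK1 to E2F8, they lie above both control libraries. The genes were picked by this test on the same libraries, so the separation of knockout from control largely follows from the selection. The separation from rescue uses the same knockout libraries, and the share of all fallen genes that show it was not counted.

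Other replication genes were counted from a separate list. Of 67 in the table, all tested, 15 fell and 10 rose in knockout (median -0.024), 22.4% and 14.9% of the list. Of all tested genes, 13.5% fell and 26.2% rose. In rescue against knockout 22 rose and 3 fell (median 0.11), 32.8% and 4.48% of the list, against 15.6% and 15.9% of all tested genes. In rescue against control none passed limma's test, with 10 above 0 and 0 below at an unadjusted p under 0.05. Of all 12734 tested genes, 1327 were above 0 and 136 below at that unadjusted p. TIMELESS, a fork protection protein, had the smallest p. Its signal was 17.3 and 17.8 in rescue, 11.04 and 10.3 in knockout, and 18.2 and 15.8 in control, a log2 change of -0.62 in knockout (adjusted p = 6.10e-05). RNASEH2A, the catalytic subunit of ribonuclease H2, fell by 0.39, the nucleoside diphosphate kinase NME1 by 0.27, and DDB1, an adaptor of the ubiquitin ligase that degrades CDT1, by 0.24. NME1 has a near-identical neighbour, NME2, between which reads may be split.

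Among those that rose, RRM2B, the p53-induced small subunit of ribonucleotide reductase, rose by 0.44 (adjusted p = 0.00222) and SAMHD1, which hydrolyses deoxynucleotides, by 0.37 (adjusted p = 0.01001). POLD4, the smallest subunit of polymerase delta, had a signal of 4.38 and 3.501 in rescue, 5.77 and 5.44 in knockout, and 3.71 and 3.68 in control. It rose by 0.49 (adjusted p = 0.00233) and took 5.58% and 5.56% of the summed polymerase delta signal in knockout, against 3.31% and 3.56% in control. POLE4, the matching small subunit of polymerase epsilon, rose by 0.28 (adjusted p = 0.00397).

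Of the 51 genes, 9 have annotated pseudogenes that carry their name, 21 in all and none of them in the table, among them those of DUT, PCNA, RRM2 and FEN1. Pseudogenes under other names were not searched for. Exons of 11 of the genes overlap those of another gene in the table, on the same strand for PRIM1, FEN1 and CHAF1B. How RSEM shared reads between such genes and pseudogenes cannot be seen in the table.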

How the data were processed

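Total RNA of 6 NOMO-1 libraries was depleted of ribosomal RNA and sequenced on an Illumina HiSeq after a stranded TruSeq preparation, per the labels' protocols. The submitters' processing notes name STAR, RSEM and the build GRCh38. Versions are not given in the sources used here. The deposited table holds 1 RSEM signal per gene and library. No header says whether it is TPM or FPKM, or which filter was applied. Values entered as deposited.

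Groups came from the genotype labels. Of 15059 genes, the 12734 that reached 1 unit in 2 or more libraries were tested with limma 3.58.1 in R 4.3.3, with a trend, on log2(signal + 1), which shrinks changes of low genes. All 6 libraries entered 1 fit (3 residual and 11 prior degrees of freedom). Adjusted p is the two-sided Benjamini-Hochberg value over all tested genes, with a threshold of 0.05. The fit was tried on simulated data with independent noise per gene and no shift of a whole library. That trial does not cover shifts such as the one of control replicate 2. The labels do not tell separate cultures from repeat libraries, so a p-value here speaks for the spread of these libraries, which may be technical. Genes were matched to GENCODE release 29 (51 of 51).

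Depth was estimated from genes with 1 transcript of up to 400 nt, where 75.0% to 83.1% of low values, multiplied by length minus 50 nt, came within 0.15 of a whole number of steps. The members and lists were chosen with earlier results of these data known. All members are accounted for, those called with values per library. Of the other replication genes, up to 4 per direction with the smallest p are named. Alternatives covered pseudocount, filter, scaling, trend, the groups fitted, a replicate block and leaving out each library. Tables and plots were made in Python 3.11.15.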

Additional observations from a re-analysis of the deposited data

How the results depend on the processing

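Across 14 alternatives and 3 comparisons, 1981 of 2142 values of single genes kept their side of the threshold, 83 lost a call, 78 gained one, and no called value changed sign. Of the calls, 4 of 13 fallen and 2 of 5 risen in knockout, and 12 of 21 risen and 0 of 1 fallen in rescue against knockout, held under every alternative. In knockout against control, 25% of all tested genes fell with quantile normalization and 25.2% with median centring. The share was 12.1% for limma without a trend and 12.6% with only the 2 groups in the fit. In the same settings, the number of the 51 genes fallen (13) was 25, 26, 6 and 8. It ran from 5 to 19 when 1 library was left out, the number risen (5) from 2 to 6, and all genes called (5056) from 3363 to 5346. In rescue against knockout, the number fallen (1) was 3 with quantile normalization and 0 to 1 with 1 library left out, and all genes called (4004) ran from 2484 to 5030. In rescue against control, all genes called (36) were 23 unfiltered, 225 when only genes averaging 5 units or more were tested, 8 with median centring, 9 without a trend and 288 with only the 2 groups in the fit, and 8 to 281 with 1 library left out. The median of polymerases and primase in knockout (-0.11) was -0.18 with median centring and -0.18 to -0.043 with 1 library left out, and that of nucleotide supply (-0.010) was -0.079 with median centring. The cause of these shifts was not tested.

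With the replicate number as a block, 382 genes were called in rescue against control, and 1 of the 51, RRM2, rose (0 without the block). The block left 13 fallen and 5 risen in knockout. Over 12734 genes, the deviations of same-numbered libraries correlated at 0.10 (rescue and knockout), -0.048 (rescue and control) and -0.011 (knockout and control). Such correlations over all genes cannot show whether same-numbered libraries share a batch that acts on some genes, which was not tested. Depth and 2 libraries per group limit what can be detected.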
